A study of Mus musculus with 16 samples.

Results

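The genes described are the myeloid colony-stimulating factors and their receptors, chosen by name as 8 of the 38003 genes in a single-cell RNA count matrix of mouse lung. They are the ligands Csf1, Il34, Csf2 and Csf3 and the receptor chains Csf1r, Csf2ra, Csf2rb and Csf3r, and all 8 were found in the matrix. Whole lungs were dissociated, live cells were sorted, and their RNA was barcoded in situ by repeated splitting and pooling of fixed cells. The deposited cell table divides 80449 cells into 15 samples, 22 cell types and 6 groups. Without seeded tumour cells there were 3 samples each of vehicle, of 6-OHDA (6-hydroxydopamine, a toxin taken up by sympathetic nerve terminals) and of BIBO3304 (an antagonist of the neuropeptide Y receptor NPY1R). With pancreatic ductal adenocarcinoma (PDAC) cells seeded there were 2 samples each of vehicle-PDAC, 6-OHDA-PDAC and BIBO3304-PDAC. The labels do not state the strain, age, dose, time after treatment or origin of the PDAC cells. Nothing says that the numbered samples of a group are separate mice, so each p-value reflects only the spread among the samples, which may be technical.

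Each sample held between 10003796 and 32580698 transcripts, and the median cell of a sample held between 1623 and 4846.5. The depth differed by group: the median cell held between 1640 and 1906 transcripts in the vehicle samples and 2631, 3534 and 4846.5 in the BIBO3304 samples. The 16 sequenced sublibraries were splits of 1 pool of cells, each with cells of all 15 samples, and 0 of 70289 barcodes occurred in more than 1 sample. PDAC seeding was read from the deposited column whose entry is IV, since 308 of 312 annotated cancer cells lay in those samples. The sample labelled vehicle-PDAC 2 held 0 cancer cells. All 22 lists of marker genes had their highest level in the type that carries their name. The list of basophil and mast cell markers, a class without a label of its own, was highest in the cells labelled neutrophils, and the neutrophil list was second highest in the cells labelled B cells.

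Colony-stimulating factors are secreted proteins that keep myeloid cells alive and set what they become. Csf1 and Il34 are separate ligands of a single receptor tyrosine kinase, encoded by Csf1r, on which monocytes and many tissue macrophages depend. Csf2 encodes GM-CSF, which alveolar type 2 cells and lymphocytes make and without which alveolar macrophages do not mature. Its receptor pairs a ligand-binding chain, Csf2ra, with a signalling chain, Csf2rb, that also serves the receptors for Il3 and Il5. Csf3 encodes G-CSF, and Csf3r its receptor, which drives the production and release of neutrophils.

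RefSeq promoter sequences, taken from 250 bases before to 50 bases after the start of the gene in build GRCm38.p6, were found for 4 of the 8 genes. Shown are those of Csf2ra and Csf3r, receptor chains that the comparisons below turn on and that the table holds, and that of Csf1, the ligand with the most transcripts. Each is written 5′ to 3′ along the strand of its gene.
Csf2ra: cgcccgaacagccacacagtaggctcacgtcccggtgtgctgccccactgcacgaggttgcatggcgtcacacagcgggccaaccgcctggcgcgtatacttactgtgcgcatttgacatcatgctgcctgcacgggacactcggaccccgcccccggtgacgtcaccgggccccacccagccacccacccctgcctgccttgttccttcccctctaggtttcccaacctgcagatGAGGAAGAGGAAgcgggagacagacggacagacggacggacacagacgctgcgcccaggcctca
Csf3r: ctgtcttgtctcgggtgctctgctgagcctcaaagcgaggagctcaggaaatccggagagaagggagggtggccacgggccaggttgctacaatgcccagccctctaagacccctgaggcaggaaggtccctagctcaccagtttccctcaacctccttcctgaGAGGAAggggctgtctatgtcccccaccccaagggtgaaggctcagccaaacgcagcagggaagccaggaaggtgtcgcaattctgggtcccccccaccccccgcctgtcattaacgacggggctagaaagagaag
Csf1: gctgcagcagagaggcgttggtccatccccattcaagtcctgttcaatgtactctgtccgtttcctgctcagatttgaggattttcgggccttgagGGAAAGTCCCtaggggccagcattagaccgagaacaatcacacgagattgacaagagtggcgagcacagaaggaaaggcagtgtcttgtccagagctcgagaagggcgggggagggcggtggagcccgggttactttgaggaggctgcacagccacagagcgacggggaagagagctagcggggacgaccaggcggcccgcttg
Capitals mark matches on either strand to GAGGAA, the core bound by the myeloid factor PU.1, or to a core bound by NF-kB, which reads GGG, NN, TT, N and CC in a row with N for any base. The Csf2ra promoter (chr19:61228369-61228668, minus strand) held 2 GAGGAA matches next to each other, and the Csf3r promoter (chr4:126024409-126024708, plus strand) held 1. The Csf1 promoter (chr3:107760420-107760719, minus strand) held 1 match to the NF-kB core and 0 to GAGGAA. Of 32851 mouse promoters of this length, 28.3% held GAGGAA and 4.79% held the NF-kB core. A core bound by C/EBP factors, TTGC, NN and AA in a row, was searched too and was in 0 of these 3 and in 10.8% of all promoters. The promoter of Csf2, found but not shown, held 1 match to the C/EBP core and 0 to GAGGAA or the NF-kB core. The deposited counts are on build mm39, and no coordinate was carried from one build to the other.

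Levels in what follows are CPM, the field's unit for a gene's share of all transcripts, here those of 1 cell type in 1 sample, with library sizes scaled by the TMM method within the type, for samples with at least 20 cells of it. Means are given ± SD over samples. Because RNA was counted per gene without division by length, levels are compared between types and samples and not between genes. In the plot of levels by cell type, the 4 receptor genes were highest in myeloid types, while the ligands Csf1, Il34 and Csf2 were each highest in a different type.

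**Figure D1:**
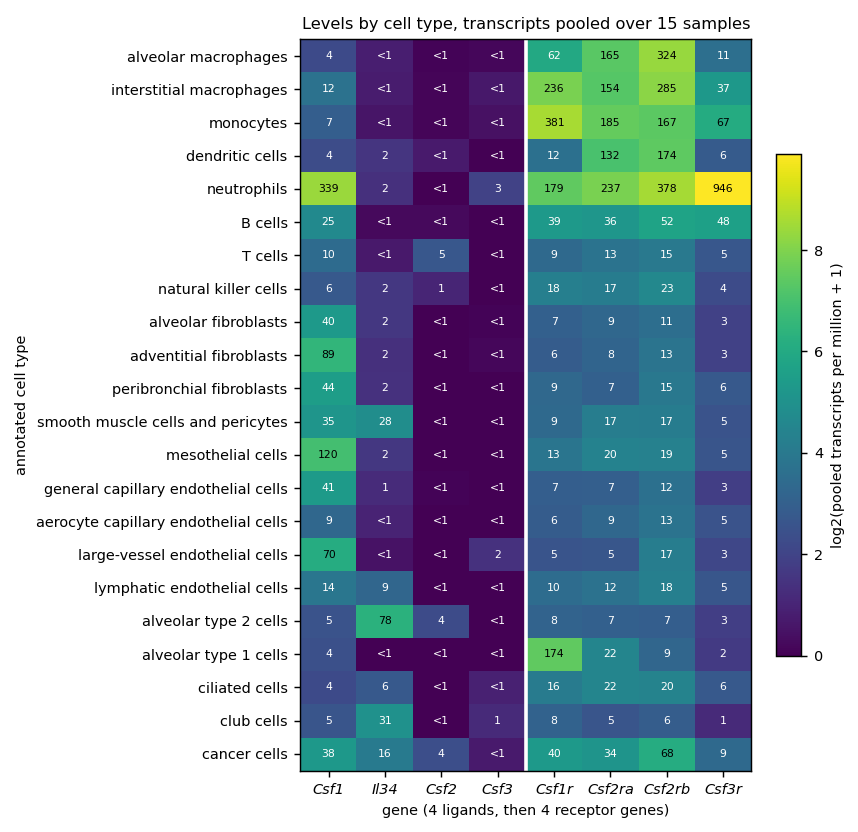
Level of each of the 8 genes (columns) in each of the 22 cell types (rows), from transcripts pooled over all 15 samples without TMM scaling. Colours give log2 (CPM + 1), and the printed numbers are CPM. The receptors concentrate in the myeloid types, Il34 in alveolar type 2 cells and Csf1 in neutrophils, mesothelial cells and fibroblasts.

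Csf1, the main ligand of the macrophage receptor, was spread over many cells, most of them stromal. Of its 7022 transcripts, 56.2% came from mesenchymal, 20.3% from myeloid and 14.9% from endothelial cells. Alveolar fibroblasts alone held 30.6% and adventitial fibroblasts 20.2%. Per transcript of the cell, the highest level was in the cells labelled neutrophils, at 359 ± 227 CPM (SD, n = 15), with single samples from 65.9 to 908. Mesothelial cells followed at 116 ± 35.2 CPM (n = 14), adventitial fibroblasts at 90.4 ± 13.1 (n = 15) and large-vessel endothelial cells at 59.9 ± 29.2 (n = 15). The ranges of neighbours in this order overlapped: neutrophils were above mesothelial cells in 11 of 14 samples, and mesothelial above adventitial cells in 12 of 14. Alveolar fibroblasts (40.6 ± 10.6 CPM) and general capillary endothelial cells (39.1 ± 10.7 CPM) could not be ordered, since the fibroblasts were higher in 8 of 15 samples. Alveolar macrophages, at 3.72 ± 1.60 CPM, held little Csf1.

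Part of the neutrophil value of Csf1 came from cells with basophil or mast cell markers. With Hdc left out of that list because neutrophils share it, 56 of the 1474 cells labelled neutrophils had at least 2 transcripts of the other markers, a threshold chosen after the values were seen. These 3.8% of cells held 160 of the 841 Csf1 transcripts and 5 of the 2345 transcripts of Csf3r, the neutrophil receptor. On unscaled counts (CPM of the summed transcripts) their Csf1 level was 1647 CPM against 286 CPM in the remaining cells, so the remaining cells were still above every other type's mean. In BIBO3304-PDAC 1, the sample with the highest value, 7 of the 33 cells labelled neutrophils reached this marker threshold. Those 7 held 40 of the 56 Csf1 transcripts. By sample, Csf1 in neutrophils was 205, 266 and 533 CPM under vehicle and 444, 233 and 349 under 6-OHDA. It was 272, 602 and 354 CPM under BIBO3304. With PDAC cells it was 612 and 156 under vehicle, 87.5 and 293 under 6-OHDA, and 908 and 65.9 under BIBO3304. Every group overlapped every other, and the 2 BIBO3304-PDAC samples were the highest and the lowest of the 15.

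In alveolar fibroblasts, the largest single store of Csf1, the samples without PDAC cells lay between 24.5 and 40.6 CPM. Those with PDAC cells lay at 47.7 and 36.5 under vehicle, 50.4 and 63.6 under 6-OHDA, and 58.0 and 42.4 under BIBO3304. Under 6-OHDA the groups with and without PDAC cells did not overlap (24.5, 34.6 and 40.6 CPM without). The difference was 0.78 ± 0.212 on the log2 scale (SE) and missed the threshold, with an adjusted p of 0.0772 by the quasi-likelihood test of edgeR with Benjamini-Hochberg adjustment. In large-vessel endothelial cells Csf1 was 44.8, 34.3 and 71.1 CPM under vehicle and 122 and 103 under vehicle-PDAC, which again did not overlap and did not pass the test.

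Il34, the second ligand of Csf1r, was concentrated in 1 epithelial type. Alveolar type 2 cells, which make surfactant, held 72.5% of its 1788 transcripts at 76.9 ± 14.1 CPM (SD, n = 15), with samples between 52.2 and 107. At least 1 Il34 transcript was seen in 19.6% of these cells (exact 95% interval 18.4 to 20.9) and in 0 of 191 alveolar type 1 cells, their epithelial neighbours, with an exact 95% interval of up to 1.91%. These intervals cover counting error only. The next type, smooth muscle cells and pericytes, was at 29.8 ± 36.2 CPM from 35 transcripts, and was lower than alveolar type 2 cells in 13 of 15 samples. By sample, Il34 in alveolar type 2 cells was 83.7, 67.6 and 68.2 CPM under vehicle and 107 and 91.4 under vehicle-PDAC. It was 76.7, 68.0 and 52.2 under BIBO3304 and 87.7 and 94.9 under BIBO3304-PDAC. Under 6-OHDA it was 68.5, 65.5 and 71.4, and under 6-OHDA-PDAC 81.7 and 68.65. The samples with PDAC cells lay above those without under vehicle and under BIBO3304 and overlapped them under 6-OHDA, and none of the 3 differences passed the test.

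Csf2, which encodes GM-CSF, was sparse, with 154 transcripts in the whole matrix. They came mostly from alveolar type 2 cells (64 transcripts, 3.63 ± 1.92 CPM), cells labelled T cells (37 transcripts, 4.86 ± 3.82 CPM) and cancer cells (33 transcripts). Markers of group 2 innate lymphoid cells, a class without a label of its own, were highest in the cells labelled T cells. The part of such cells in this Csf2 count was not tested. T cells were above alveolar type 2 cells in 9 of 15 samples, so these sources could not be ordered per cell type. Of the 33 cancer cell transcripts, 20 were in the sample vehicle-PDAC 1. Myeloid cells, which carry the receptor, held 14 transcripts in all. Csf3, which encodes G-CSF, had 51 transcripts, of which alveolar macrophages held 12, large-vessel endothelial cells 8 and neutrophils 7. Neither Csf2 nor Csf3 passed the filter on low counts in any cell type, so neither could be compared within a type at this depth. Csf3 did not pass it in whole-lung sums either.

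**Figure D2:**
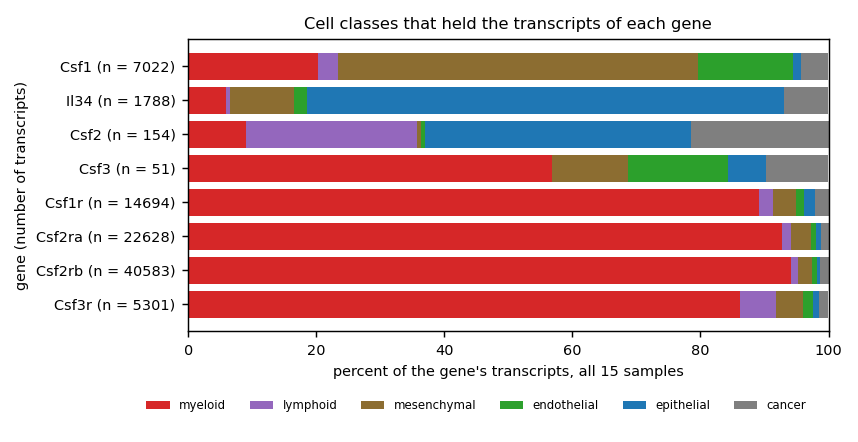
Share of each gene's transcripts, in percent, that came from myeloid, lymphoid, mesenchymal, endothelial, epithelial and cancer cells, with all 15 samples pooled. The 4 receptors are at least 86.2% myeloid, Csf1 is 56.2% mesenchymal and Il34 is 74.6% epithelial.

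Csf1r, the receptor of Csf1 and Il34, was highest in monocytes, at 327 ± 81.3 CPM (SD, n = 15). Interstitial macrophages followed at 222 ± 74.5 CPM, neutrophils at 173 ± 61.0 and alveolar macrophages at 62.1 ± 11.8. Monocytes were above interstitial macrophages in 15 of 15 samples and those above neutrophils in 12 of 15. Myeloid cells held 89.1% of the 14694 transcripts. In monocytes Csf1r was 245, 209 and 308 CPM under vehicle, 304, 281 and 406 under 6-OHDA, and 344, 555 and 372 under BIBO3304. All BIBO3304 samples lay above all vehicle samples, and the difference of 0.76 ± 0.202 on the log2 scale (SE) had an adjusted p of 0.0879 by edgeR. With PDAC cells the values were 365 and 350 under vehicle, 290 and 310 under 6-OHDA, and 262 and 299 under BIBO3304. In interstitial macrophages the values were 156, 126 and 170 CPM under vehicle, 141, 250 and 280 under 6-OHDA, and 231, 413 and 198 under BIBO3304. The BIBO3304 samples again lay above the vehicle samples, without passing the test.

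A further site of Csf1r counts was the cells labelled alveolar type 1, the flat cells of gas exchange. Their 191 cells held 80 Csf1r transcripts, 174 CPM on pooled unscaled counts, against 10 of Csf2ra and 4 of Csf2rb. At least 1 Csf1r transcript was seen in 27.2% of these cells (exact 95% interval 21.1 to 34.1), with at most 4 in any of them. In alveolar type 2 cells, which have more transcripts per cell, the share was 2.93%. The alveolar type 1 cells thus had 2000 Csf1r transcripts per 100 of Csf2rb, a ratio that rests on 4 Csf2rb transcripts. It was 115 in alveolar type 2 cells, 19.2 in alveolar macrophages, 82.8 in interstitial macrophages and 229 in monocytes. Single samples held between 0 and 21 of the 80 transcripts, and 13 of 15 had at least 1. Only 2 samples had 20 or more of these cells, so no group comparison was made. Csf1r shares 873 exon bases with Hmgxb3 on the opposite strand, whose level in the same cells was 56.7 CPM. No source used here says whether counting used strand, so reads of the pair could not be told apart.

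Csf2ra, the ligand-binding chain of the GM-CSF receptor, was highest in neutrophils, at 243 ± 64.7 CPM (SD, n = 15), and in monocytes, at 189 ± 30.4. Alveolar macrophages (163 ± 20.1 CPM) and interstitial macrophages (157 ± 29.7 CPM) did not differ beyond their spread, with the alveolar cells higher in 9 of 15 samples. Dendritic cells were at 123 ± 55.0 CPM. Since alveolar macrophages are the most numerous cells, they held 70.5% of the 22628 Csf2ra transcripts. The signalling chain Csf2rb had a different order. It was 376 ± 104 CPM in neutrophils, 327 ± 54.4 in alveolar macrophages, 261 ± 64.9 in interstitial macrophages, 182 ± 33.9 in dendritic cells and 162 ± 40.9 in monocytes. Alveolar macrophages held 77.3% of the 40583 Csf2rb transcripts. Csf2rb has a related neighbour, Csf2rb2, whose product serves the Il3 receptor of mice. They share 12.3% of the 50-base windows of Csf2rb and 18.4% of those of Csf2rb2, and reads from these stretches could have been split between them. Csf2rb2 was highest in alveolar macrophages, at 91.9 CPM, and adding it to Csf2rb changed no call.

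Csf3r, the G-CSF receptor, was highest in neutrophils. They were at 915 ± 333 CPM (SD, n = 15), with samples from 440 to 1611. Monocytes followed at 59.4 ± 17.1 CPM, cells labelled B cells at 47.6 ± 25.4 and interstitial macrophages at 40.7 ± 17.9. The neutrophils were above the monocytes in 15 of 15 samples, while monocytes and B cells overlapped. At least 1 Csf3r transcript was seen in 61.4% of neutrophils, which had a median of 1147 transcripts per cell, and in 0.919% of alveolar type 2 cells, which had 3025. The B cell value lay mostly in a minority of cells. The 316 of 2162 B cells with at least 3 transcripts of neutrophil markers, a threshold chosen after the values were seen, held 179 of the 249 Csf3r transcripts. They also held 95 of the 129 Csf1 transcripts and 81 of the 204 Csf1r transcripts. Doublets were not removed here.

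Several genes followed the receptors closely across the 22 types. By Pearson correlation of log2 mean CPM over the types, among 13502 genes, Csf3r was most like Slfn4 (0.978), Trpm2 (0.956), Clec4d (0.953) and Cyp4f18 (0.948). Csf2rb was most like Nlrp3 (0.974), Tbxas1 (0.967), Gm49339 and Slc15a3 (0.965). Csf2ra was most like Alox5ap (0.974), the inflammasome gene Nlrp3 (0.962), Apobr (0.96) and Man2b1 (0.957). Among the genes closest to Csf1r were Gm15832 (0.88), Clec4a3 (0.878) and Cd300ld (0.873). The ligands had looser neighbours. Csf1 was nearest to Itga2b (0.778) and Gbp2 (0.77), with Gbp2b and Gm26885 next, and Il34 to Sel1l3 and Muc1 (both 0.867), with Pak6 and Sytl5 next. Csf2 was nearest to Gm49890 (0.846), Zan, Bub1 and Ofd1. Between the genes themselves, Csf2ra and Csf2rb correlated at 0.952 and Csf1 with its receptor Csf1r at -0.0938. These values describe types that share 15 samples and carry no test.

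The comparison of each drug with vehicle asks what loss of sympathetic nerves, or of NPY1R signalling, does to these genes within a cell type. Without PDAC cells, 0 of the 50 tests of these genes in cell types passed for 6-OHDA and 0 of 50 for BIBO3304. Csf2 and Csf3 are in none of the tests within cell types, here or below, since neither passed the filter on low counts. Over all genes and types the shares called were 0.0669% and 0.307%. Unadjusted p-values under 0.05 were seen in 10 and 16 of the 50 tests, against 7.72% and 12.9% of all tests. DESeq2 called 0 and 1, the latter Csf1r in monocytes. Without BIBO3304 3, edgeR called 2 tests for BIBO3304, Csf1r in monocytes and in B cells. With PDAC cells, 0 of 49 tests passed for 6-OHDA and 0 of 50 for BIBO3304, against 0.405% and 0.0317% of all tests. Unadjusted p-values under 0.05 numbered 3 and 5, against 7.47% and 7.76% of all tests. DESeq2 called 1 (Csf2ra in dendritic cells) and 0. Without vehicle-PDAC 2, the sample with 0 cancer cells, the BIBO3304 difference of Csf3r in neutrophils was -1.51. With that sample it was -1.11 (adjusted p = 0.178 by edgeR).

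Csf2ra was estimated lower in every type where it was tested in 3 of the 4 comparisons of a drug with vehicle, although no single test passed. Its estimate was below vehicle in 11 of 11 types under 6-OHDA, with a median of -0.519 on the log2 scale, and in 11 of 11 under BIBO3304, with a median of -0.485. It was also below in 11 of 11 under 6-OHDA-PDAC against vehicle-PDAC, with a median of -0.757. Under BIBO3304-PDAC against vehicle-PDAC it was lower in 7 types and higher in 4, with a median of -0.0992. The comparisons without PDAC cells share their vehicle samples, those with them their vehicle-PDAC samples, and none of the 44 tests passed. The 11 types come from the same samples and are not 11 replicates. The median over all genes and types lay between -0.00813 and 0.00388 in the 4 comparisons, and between 49.7% and 50.9% of all tests were below vehicle. The pattern was not particular to Csf2ra. Over all types, a list of GM-CSF dependent alveolar macrophage genes had medians of -0.465, -0.845, -0.963 and -0.102 in the same order of comparisons. Markers of alveolar macrophages, which held most Csf2ra transcripts, moved with these estimates in other types. In monocytes the unscaled sum of 10 such markers was 223 to 307 CPM in the vehicle samples, 164 to 173 in the 6-OHDA samples and 51.5 to 115 in the BIBO3304 samples. In interstitial macrophages it was 234.5 to 492, 151 to 237 and 54.45 to 161, and in T cells 237 to 294.5, 84.5 to 177 and 62.4 to 131. With PDAC cells it was 151 to 427 CPM in T cells under vehicle and 84.8 to 106 under 6-OHDA, where Ear2 and Siglecf were at 0. The part of these markers in the result was not tested. In interstitial macrophages Csf2ra was 208, 197 and 201 CPM under vehicle, above all 12 other samples, which lay between 115 and 184. In monocytes the vehicle samples, at 218, 266 and 222 CPM, were also above all others, which lay between 149 and 211. In dendritic cells Csf2ra was 143 and 169 CPM under vehicle-PDAC and 62.8 and 58.7 under 6-OHDA-PDAC. That difference, -1.34 on the log2 scale (SE 0.381), came closest to the threshold, with an adjusted p of 0.0548 by edgeR. In alveolar macrophages the values were 210, 188 and 171 CPM under vehicle and 162, 144 and 153 under 6-OHDA, a difference of -0.31 that did not pass.

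**Figure D3:**
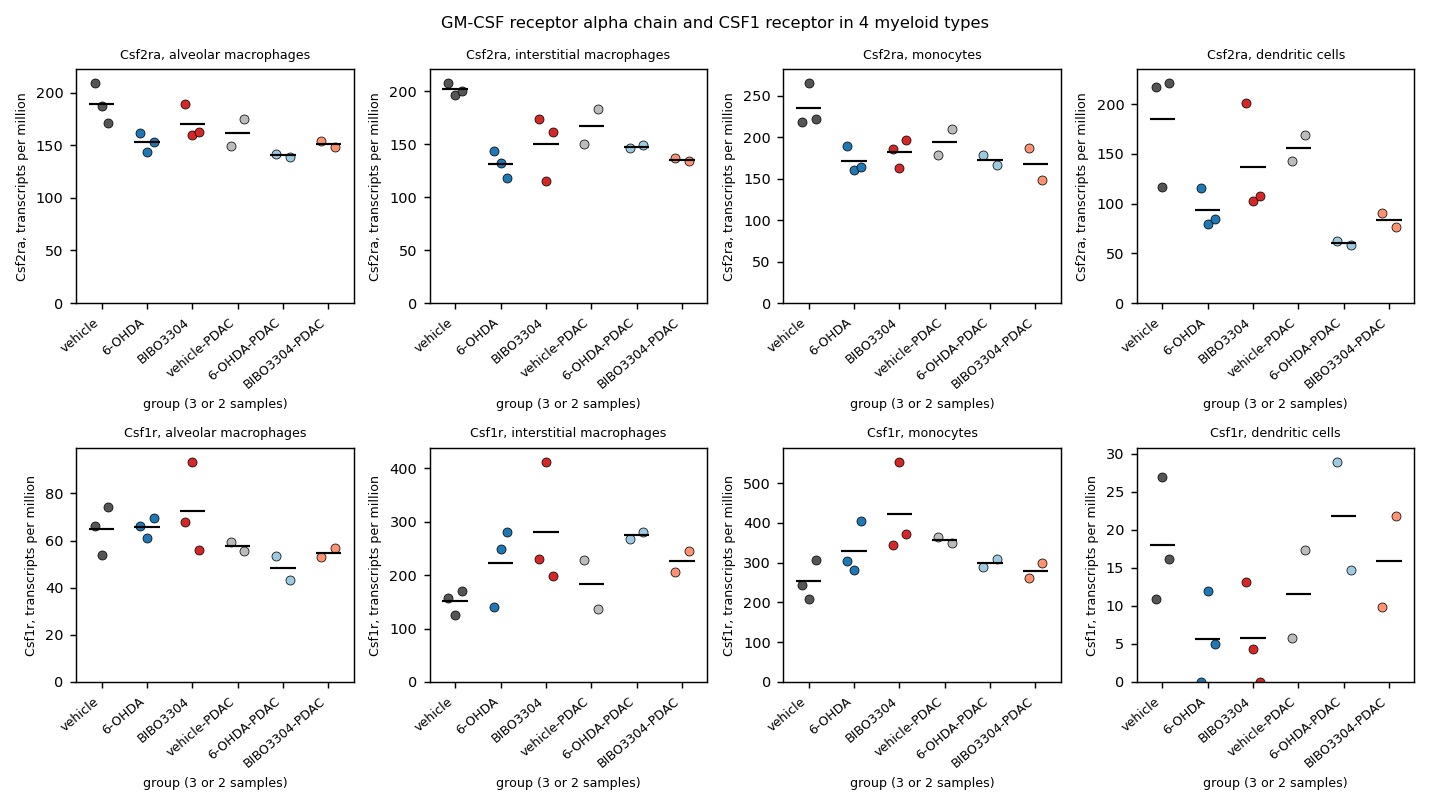
Level of Csf2ra (top) and Csf1r (bottom) in CPM in alveolar macrophages, interstitial macrophages, monocytes and dendritic cells, by group. Points are samples and lines are group means. Csf2ra in interstitial macrophages and monocytes is highest in the 3 vehicle samples.

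Summed over the whole lung, Csf2ra and Csf2rb fell and Csf2 rose under BIBO3304 without PDAC cells, 3 of 7 genes tested. In this comparison 15.6% of all 17481 genes passed. Csf2ra was 118, 129 and 101 CPM under vehicle and 65.4, 58.8 and 56.8 under BIBO3304. It fell by 0.94 on the log2 scale (SE 0.163, adjusted p = 0.00594 by edgeR), and the groups did not overlap. Csf2rb was 185, 165 and 179 CPM under vehicle and 115, 140 and 107 under BIBO3304, again without overlap, and fell by 0.55 (SE 0.148, adjusted p = 0.027 by edgeR). Csf2 was 0.178, 0.0875 and 0.200 CPM under vehicle and 0.796, 0.818 and 0.505 under BIBO3304. It rose by 2.05 (SE 0.621, adjusted p = 0.0402 by edgeR), from 9 transcripts in the 3 vehicle samples to 49 in the 3 BIBO3304 samples. No test of Csf2 within a cell type stands beside this rise. The share of alveolar type 2 cells, the type with the most Csf2 transcripts, moved with it. It was 2.64% to 5.35% of cells in the vehicle samples and 5.97% to 6.88% in the BIBO3304 samples. The share of T cells overlapped, at 3.17% to 4.83% and 3.66% to 5.96%. The part of these shares in the rise was not tested. Only the Csf2ra call held when each sample was left out in turn, with adjusted p-values from 0.0145 to 0.0279. The calls of Csf2 and of Csf2rb were each lost in 5 of 6 such fits.

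The share of alveolar macrophages, which hold most GM-CSF receptor transcripts, moved with these sums. It was 38.1% ± 3.84 of cells under vehicle (SD, n = 3) and 17.8% ± 1.94 under BIBO3304 (n = 3). On unscaled counts Csf2ra inside alveolar macrophages was 225, 170 and 188 CPM under vehicle and 217, 158 and 134 under BIBO3304, which overlap. In all other cells together it was 39.1, 50.9 and 39.3 CPM under vehicle and 31.9, 30.5 and 20.4 under BIBO3304, which do not. Fewer cells of a type and less RNA per cell cannot be told apart in a whole-lung sum.

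In the whole lung, 0 of 7 genes passed under 6-OHDA without PDAC cells, where 0.00572% of all genes did, and DESeq2 called 0. Of the 7, 2 had an unadjusted p under 0.05, against 12.7% of all genes. Csf2ra was 84.8, 71.7 and 76.0 CPM there, below all vehicle samples, with an alveolar macrophage share of 22.3% ± 1.94 (n = 3). With PDAC cells, 0 of 7 passed for 6-OHDA, against 3.67% of all genes, and 0 of 7 for BIBO3304, against 0% of all genes. Unadjusted p-values under 0.05 numbered 2 and 0, against 17% and 7.96% of all genes, and DESeq2 called 1 (Csf2ra) and 0. Csf2ra was 78.6 and 129 CPM under vehicle-PDAC and 65.7 and 58.0 under 6-OHDA-PDAC, a difference of -0.75 with an adjusted p of 0.0546 by edgeR, and of -0.34 (adjusted p = 0.551) without vehicle-PDAC 2; without vehicle-PDAC 1 it passed. The alveolar macrophage share was 30.8% and 44.5% in the vehicle-PDAC samples and 13.6% and 14.3% in the 6-OHDA-PDAC samples. Under BIBO3304-PDAC the sum was 81.1 and 99.7 CPM, inside the range of vehicle-PDAC, and the share averaged 31.3%.

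**Figure D4:**
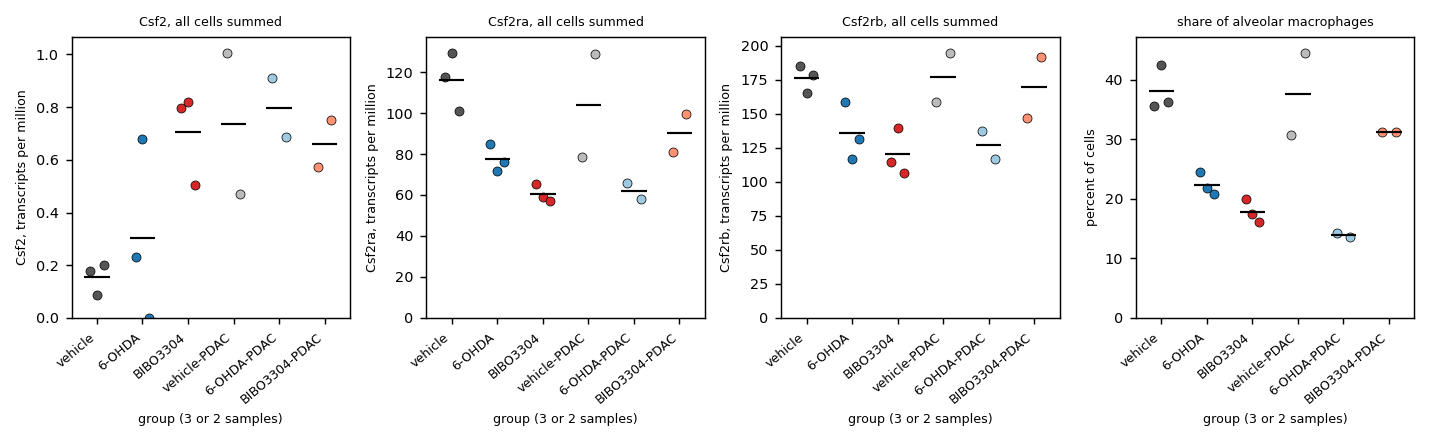
Whole-lung level of Csf2, Csf2ra and Csf2rb in CPM, and the share of alveolar macrophages in percent of cells, for each of the 15 samples by group. Points are samples and lines are group means. The receptor sums and the alveolar macrophage share are lower in the BIBO3304 samples than in the vehicle samples, while Csf2 is higher.

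The comparison of lungs with and without PDAC cells was made under each treatment. Under vehicle, 0 of 50 tests passed, where 0.00176% of all tests did. Of the 50, 4 had an unadjusted p under 0.05, against 4.91% of all tests. Under 6-OHDA, 0 of 49 passed, against 0.729% of all tests. Again 4 had an unadjusted p under 0.05, against 7.85% of all tests. DESeq2 called 0 under both treatments. Under BIBO3304, 4 of 50 tests passed, while 4.25% of all tests passed. Of the 50, 21 had an unadjusted p under 0.05, against 19.1% of all tests. The 4 calls were Csf1r, Csf2ra and Csf2rb in cells labelled B cells, which rose, and Csf3r in neutrophils, which fell. Without BIBO3304 2 the calls numbered 1, without BIBO3304-PDAC 1 they numbered 8, and without BIBO3304-PDAC 2 they numbered 0.

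Summed over the whole lung, Csf2ra and Csf2rb rose with PDAC cells under BIBO3304, 2 of 7 genes tested, where 24.7% of all 17481 genes passed. Csf2ra was 65.4, 58.8 and 56.8 CPM under BIBO3304 and 81.1 and 99.7 under BIBO3304-PDAC, without overlap, a difference of 0.58 on the log2 scale (SE 0.180, adjusted p = 0.0314 by edgeR). Csf2rb was 115, 140 and 107 CPM and then 147 and 192, again without overlap, a difference of 0.49 (SE 0.164, adjusted p = 0.0422 by edgeR). DESeq2 called both. The Csf2ra call was lost without BIBO3304 2 or 3 or BIBO3304-PDAC 2 (adjusted p from 0.081 to 0.318), and the Csf2rb call without BIBO3304 1 or 3 or BIBO3304-PDAC 2 (adjusted p from 0.104 to 0.464). The share of alveolar macrophages moved with both sums, from 17.8% ± 1.94 to 31.3% of cells, and its part in the result was not tested. Under vehicle 0 of 7 whole-lung tests passed, against 0% of all genes, and 1 had an unadjusted p under 0.05, against 6.02% of all genes. Under 6-OHDA 0 of 7 passed, against 3.16% of all genes, and 0 had an unadjusted p under 0.05, against 17.1% of all genes. DESeq2 called 0 under both.

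In neutrophils Csf3r was 1287, 1611 and 1113 CPM under BIBO3304 and 567 and 440 under BIBO3304-PDAC. The groups did not overlap, and the BIBO3304-PDAC samples were the lowest of all 15. The fall was 1.40 on the log2 scale (SE 0.312, adjusted p = 0.00963 by edgeR). The call was lost when BIBO3304-PDAC 2 was left out (-1.32, adjusted p = 0.128). The BIBO3304-PDAC samples had 33 and 67 neutrophils. The summed level of 10 neutrophil markers, a list without Csf3r, moved with it: 5086 and 5819 CPM there, against 11290 to 14360 under BIBO3304 and 6053 to 15330 over the other groups. Its member Ly6g was at 0 in both groups, and the part of the list's level in the result was not tested. With the basophil-marked cells left out, Csf3r on unscaled counts was 1484, 1795 and 1069 CPM under BIBO3304 and 546 and 405 under BIBO3304-PDAC. Under the other treatments Csf3r was 907, 674 and 1113 CPM under vehicle, 1411 and 800 under vehicle-PDAC, 881, 634 and 653 under 6-OHDA and 711 and 925 under 6-OHDA-PDAC, and each of these pairs of groups overlapped.

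In the cells labelled B cells, Csf1r was 4.97, 1.96 and 20.2 CPM under BIBO3304 and 64.7 and 122 under BIBO3304-PDAC. The rise was 3.50 on the log2 scale (SE 0.663, adjusted p = 0.00664 by edgeR). It rests on 2, 1 and 7 transcripts of Csf1r under BIBO3304 and on 17 and 51 under BIBO3304-PDAC. Under vehicle Csf1r was 28.7, 51.3 and 56.1 CPM, so the BIBO3304 samples were also the low ones among samples without PDAC cells. Csf2ra rose by 1.96 (SE 0.483, adjusted p = 0.0204) and Csf2rb by 1.96 (SE 0.489, adjusted p = 0.0215), both by edgeR. Markers of macrophages and monocytes moved with these calls: the sum of 10 alveolar macrophage markers in the B cells was 55.1 to 203 CPM under BIBO3304 and 291 to 471 under BIBO3304-PDAC. The sum of 10 monocyte markers was 541 to 573 and 628 to 996. Their part in the result was not tested. Among B cells with fewer than 3 transcripts of neutrophil markers, Csf1r on unscaled counts was 3.28, 2.39 and 14.9 CPM under BIBO3304. It was 50.2 and 97.7 under BIBO3304-PDAC, so the groups stayed apart there. BIBO3304 2 had 0 B cells at or above that threshold. The split used neutrophil markers only, so it cannot show the part of the macrophage and monocyte markers. The call of Csf1r was lost without BIBO3304 2 (2.95, adjusted p = 0.0565) and without BIBO3304-PDAC 2 (2.92, adjusted p = 0.279). That of Csf2ra was lost without the same samples (adjusted p = 0.114 and 0.441). That of Csf2rb was lost without BIBO3304 1 (adjusted p = 0.0826), BIBO3304 2 (0.0936) or BIBO3304-PDAC 2 (0.458).

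**Figure D5:**
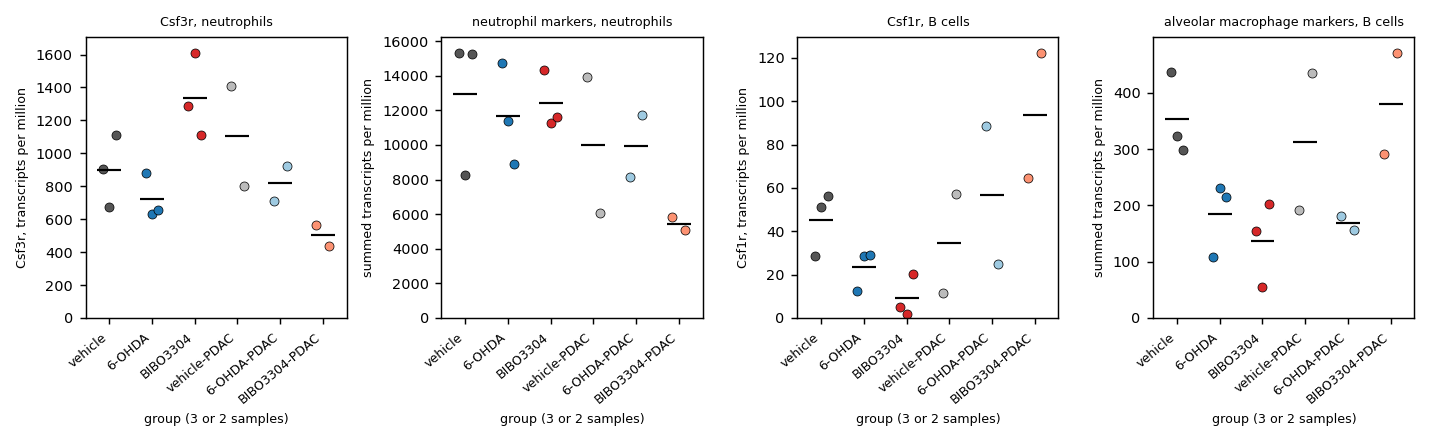
Level of Csf3r in neutrophils and of Csf1r in cells labelled B cells in every sample, in CPM, beside the summed level of neutrophil markers in the neutrophils and of alveolar macrophage markers in the B cells. Points are samples and lines are group means. The BIBO3304-PDAC samples are lowest for Csf3r, and the neutrophil markers are lowest in the same 2 samples.

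Whether a drug acts differently with PDAC cells present was tested as an interaction. For 6-OHDA, 0 of 49 tests passed, against 0.00744% of all tests, and DESeq2 called 0. Of the 49, 2 had an unadjusted p under 0.05, against 5.12% of all tests. For BIBO3304, 12 of 50 tests had an unadjusted p under 0.05, against 13% of all tests. After adjustment 2 of 50 passed, against 0.413% of all tests. These were Csf3r in neutrophils, at -1.65 (SE 0.415, adjusted p = 0.0423 by edgeR), and Csf1r in B cells, at 3.84 (SE 0.906, adjusted p = 0.0392 by edgeR). Both were lost when the fit held only the groups compared, with adjusted p-values of 0.101 and 0.0523. When single samples were left out, the Csf3r call was lost in 7 of 10 fits, those without vehicle 1 or 2, BIBO3304 1 or 2, vehicle-PDAC 1 or either BIBO3304-PDAC sample (adjusted p from 0.0767 to 0.276). The Csf1r call was lost in 6 of 10, those without vehicle 2 or 3, BIBO3304 1 or 2, vehicle-PDAC 1 or BIBO3304-PDAC 2 (adjusted p from 0.0523 to 0.336). Without vehicle-PDAC 2 the values were -2.05 (adjusted p = 0.00816) for Csf3r and 5.41 (adjusted p = 0.00327) for Csf1r, both by edgeR, and 7 tests passed. In whole-lung sums 0 of 7 interaction tests passed for each drug, against 0% of all genes, and DESeq2 called 0. Unadjusted p-values under 0.05 numbered 0 for 6-OHDA, against 7.29% of all genes. They numbered 2 for BIBO3304, against 24.1% of all genes. For BIBO3304 the calls numbered 2, Il34 and Csf2ra, without vehicle-PDAC 2.

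Other genes of these pathways were read in the myeloid types where the receptors act. The gene lists were chosen with earlier results of these data known. Of the list of GM-CSF dependent genes of alveolar macrophages, 0 of 18 passed in those cells in any of the 9 contrasts, and of all 12818 genes tested there at most 0.0858% passed in any of them. In interstitial macrophages, 15 genes of a list of Csf1r dependent macrophage and monocyte genes were tested. Under 6-OHDA with PDAC cells 4 of the 15 fell, and their median was -0.671, while 3.52% of all genes passed in that type. They were the mannose receptor Mrc1 (-2.14, adjusted p = 0.00091 by edgeR), the scavenger receptor Cd163 (-2.81, adjusted p = 0.00215), the lipid carrier Apoe and the chemokine receptor Cx3cr1. With PDAC cells against none, 7 of 15 fell under 6-OHDA (median -1.05; 9.22% of all genes passed), among them Adgre1, which encodes F4/80 (-1.98, adjusted p = 0.000678). Under BIBO3304 9 of 15 fell (median -1.33; 18% of all genes passed), led by Apoe (-2.38), Mrc1 (-2.34) and Adgre1 (-2.20), each with an adjusted p at or under 0.000231 by edgeR. Jak1, a kinase of cytokine receptors, fell by 2.60 and Socs3, a feedback inhibitor, fell by 1.96 in the same cells and comparison. The share of interstitial macrophages among all cells moved with these lists. It was 3.52% under vehicle-PDAC, 3.36% under 6-OHDA and 11.4% under 6-OHDA-PDAC. It was 2.14% under BIBO3304 and 6.75% under BIBO3304-PDAC, where the 2 samples were unlike, at 3.915% and 9.584%. The part of this share in the result was not tested. Csf1r itself did not pass in interstitial macrophages in any comparison.

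In monocytes 9 of 13 tested genes of the Csf1r list passed with PDAC cells against none under BIBO3304, 5 higher and 4 lower, where 9.04% of all genes passed. In neutrophils 3 of 11 tested genes of the G-CSF list fell in the same comparison, among them Csf3r and S100a9, a subunit of calprotectin (median -1.03; 7.93% of all genes passed). Over all types that comparison called 25 of 200 tests of the GM-CSF list, 23 of them higher, 29 of 147 of the Csf1r list and 8 of 98 of the G-CSF list. It called 21 of 361 tests of signal transducers, 21 of 285 of myeloid transcription factors and 7 of 89 of related receptors and ligands, each set beside 4.25% of all tests. In alveolar macrophages themselves 0 of 18 genes of the GM-CSF list passed there. The share of these cells was 17.8% under BIBO3304 and 31.3% under BIBO3304-PDAC. The sum of their 10 markers in monocytes was 51.5 to 115 CPM under BIBO3304 and 217 to 342 under BIBO3304-PDAC, beside the values in B cells above. The part of these in the list's count was not tested. The smallest adjusted p was for Lcn2, from the list of G-CSF responsive neutrophil genes, which rose by 1.85 in alveolar type 2 cells (adjusted p = 7.76e-06 by edgeR). Csf3r in alveolar type 2 cells was 3.87 ± 3.78 CPM over the 15 samples. Whether the rise of Lcn2 is a response to G-CSF was not tested. Under 6-OHDA with PDAC cells, Kit, a receptor related to Csf1r, fell by 1.89 in dendritic cells (adjusted p = 0.0104 by edgeR).

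Levels of a ligand in its source cells were also set against the share of the cells that carry its receptor, over the 15 samples. Csf2 in alveolar type 2 cells and the share of alveolar macrophages had a Pearson r of -0.288 (permutation p = 0.3, adjusted 0.351) and a Spearman rho of -0.296 (p = 0.281, adjusted 0.422). Csf1 in non-immune types and the share of interstitial macrophages had an r of 0.433 (permutation p = 0.112, adjusted 0.336) and a rho of 0.55 (p = 0.0374, adjusted 0.112). Without the 2 samples farthest from the median Csf1 level, r was 0.231. Within samples without PDAC cells r was 0.533 and within those with PDAC cells 0.0608. For Il34 and the same share, r was 0.259 (permutation p = 0.351, adjusted 0.351), rho was 0.214 (p = 0.441, adjusted 0.441), and r was -0.158 without and 0.072 with PDAC cells. None of the 3 relations passed after adjustment over the 3. The relation of Csf3 to neutrophils was not computed, since 17 transcripts were left in non-immune cells.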

How the data were processed

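The authors deposited raw transcript counts per gene and cell and a table of the cells' samples, treatments and types, with a mitochondrial percent per cell, also deposited by the authors, that was not needed here. Summed counts equalled the deposited total for 99% of cells. Per the submitters' processing notes, Seurat 5.3.0 and the build mm39 were used. No source used here gives an aligner, a counter or a filter on cells. Cell types are the authors' labels, and no doublets were removed here.

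For each sample and type, counts were summed (at least 20 cells, 2 samples per group), filtered with filterByExpr, scaled by TMM and fitted over all 6 groups with the quasi-likelihood test of edgeR 4.0.16 in R 4.3.3. Benjamini-Hochberg adjustment ran over all genes of a type and comparison, and calls are adjusted p-values under 0.05. Whole-lung sums were fitted alike. The script was tested on simulated data. Permutation tests of correlations were two-sided with 100000 resamples, the p-values adjusted over the 3 relations. Alternatives were DESeq2 1.42.0, a replicate block, RLE scaling, a 50-cell minimum, omission of the gene filter, fits of only the groups compared, summing Csf2rb with Csf2rb2, and leaving out each sample.

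The members and lists were chosen with earlier results of these data known. All 8 genes are named in every type, with the 4 genes most like each by correlation (members with at least 100 transcripts, genes at 10 CPM or more in a type) and up to 6 called pathway genes per comparison by smallest adjusted p. Some genes that this rule names are not reported here. The splits of neutrophils and B cells by markers, and the values inside and outside alveolar macrophages and in alveolar type 1 cells, and the reading of whole-lung sums with PDAC cells against none and of their interactions, with their alternatives, were added after the data were seen.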

Additional observations from a re-analysis of the deposited data

Results flagged for a closer look

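The effect of BIBO3304 on Csf3r in neutrophils differed between lungs with and without PDAC cells by -1.65 on the log2 scale (SE 0.415, adjusted p = 0.0423 by the interaction test of edgeR). The effect on Csf1r in cells labelled B cells differed by 3.84 (SE 0.906, adjusted p = 0.0392 by edgeR). Both rest on 2 samples with PDAC cells per treatment. Both calls were lost in a fit of only the groups compared (adjusted p = 0.101 and 0.0523 by edgeR) and in 7 and 6 of 10 fits that left out 1 sample. Neutrophil markers in neutrophils were lower with the first (5086 to 5819 CPM under BIBO3304-PDAC, 11290 to 14360 under BIBO3304), and alveolar macrophage markers in B cells were higher with the second (291 to 471 CPM against 55.1 to 203). Their part in the results was not tested.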

How the results depend on the processing

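Calls among these genes depended on single samples and on the gene filter. With no gene filter the calls rose from 0 to 6 for BIBO3304 against vehicle, from 0 to 1 for 6-OHDA with PDAC cells, from 0 to 1 for PDAC cells under 6-OHDA, from 4 to 13 for PDAC cells under BIBO3304, and from 2 to 6 for the BIBO3304 interaction. In whole-lung sums without a filter they rose from 0 to 1 for 6-OHDA with and without PDAC cells, from 0 to 1 for PDAC cells under vehicle (Csf2) and from 0 to 2 for the BIBO3304 interaction (Csf2 and Csf2ra). With only the groups compared in the fit they were 1, 1, 1, 7 and 0 in the same order of 5 comparisons. DESeq2 gave 1 for BIBO3304 against vehicle and 1 for 6-OHDA with PDAC cells, in cell types and in whole-lung sums. For the BIBO3304 interaction, RLE size factors and a minimum of 50 cells each gave 1. Leaving out each sample gave 0 to 2 calls for BIBO3304 against vehicle, 0 to 1 for BIBO3304 with PDAC cells, 0 to 8 for PDAC cells under BIBO3304, 0 to 7 for the BIBO3304 interaction, 1 to 2 for the BIBO3304 whole-lung sums, 0 to 2 for those of PDAC cells under BIBO3304 and of the BIBO3304 interaction, and 0 to 1 for the 6-OHDA whole-lung sums with PDAC cells. An arm left with 1 sample was assumed to vary like the other groups. The cause of these changes was not tested. The correlation of Il34 with the interstitial macrophage share turned to -0.158 without PDAC cells. With the sample number as a replicate block, 1 test passed for 6-OHDA with PDAC cells (Csf2ra in dendritic cells, -1.33, adjusted p = 0.0307 by edgeR), and the other counts stayed within 1.5 times. Whether the numbers pair the samples could not be decided. Of 33 same-number pairs, 7 had a correlation of deviations from the group mean over 0.1, with a range of -0.264 to 0.381. In groups of 2 samples the deviations mirror each other, so these pairs are not independent. Depth limits Csf2 (154 transcripts) and Csf3 (51) most.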
